A study of Mus musculus with 6 samples.

Results

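Ajuba, Limd1, Wtip, Zyx, Lpp and Trip6 encode cytoplasmic scaffold proteins that carry LIM domains, zinc-binding modules for contacts between proteins, at their C-terminal end. The 6 genes were taken by name from the 46517 gene identifiers measured, and 5 of them passed the filter on low counts that left 12407 genes for testing; Wtip had too few counts. They were selected on the fold change of Ajuba in the comparison described here, with its relatives added, so the values of the 6 genes in that comparison are a description and carry no test.

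The study compared the transcripts of mouse CD8 T cells activated with the supernatant of IL-3-treated basophils with those of cells given that of control basophils. Naive T cells from spleen and lymph nodes of C57BL/6J mice were activated for 3 days on plates coated with antibody to CD3 (5 µg/mL), with antibody to CD28 (0.5 µg/mL) and IL-2 (100 units/mL). The IL-3 supernatant group (3 libraries) received, between day 1 and day 2, medium in which sorted basophils had spent 2 days with 3 ng/mL IL-3 and 100 units/mL IL-2. The PBS supernatant group (3 libraries) received medium from basophils kept the same way with IL-2 and PBS. Basophils are rare granulocytes for which IL-3 is a growth and activation factor. Both groups shared strain, stimulation and IL-2. None of the 6 libraries was given IL-3 medium that had held no basophils, so the added cytokine and what the basophils released cannot be told apart. Whether the replicates of a group were separate mice or cultures is not stated in the labels, so p-values reflect the spread among these libraries alone, which could be technical.

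The Ajuba family (Ajuba, Limd1, Wtip) and the zyxin family (Zyx, Lpp, Trip6) sit at focal adhesions and cell junctions and can also enter the nucleus. Zyxin and LPP bind alpha-actinin and bring Ena/VASP proteins to actin filaments under tension. Ajuba-family proteins bind LATS kinases and so restrain the Hippo pathway, the kinase cascade that keeps the coactivator YAP out of the nucleus. They also scaffold the degradation of hypoxia-inducible factors, take part in microRNA silencing and act as corepressors of Snail-type zinc finger factors. Most of this work was done in epithelial cells and fibroblasts.

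Summed expected counts were 19374216, 22174902 and 19283416 in IL-3 supernatant replicates 1 to 3, and 17893550, 18753617 and 17377052 in PBS supernatant replicates 1 to 3. Levels are given as CPM, counts scaled to library size, and 0 counts allow a level of up to 0.135 to 0.173 CPM, depending on the library (3 counts, counting error only). By chi-square per degree of freedom, PBS supernatant replicate 2 differed most from its group (63.5 and 59.6, against 13.3 between replicates 1 and 3). This value is summed over all genes, so a few abundant genes can set it. With all 6 libraries 1834 genes were called higher and 2001 lower. The calls were 1916 and 2102 without PBS supernatant replicate 1, 1681 and 1652 without replicate 2, and 1476 and 1601 without replicate 3. The measures thus differ on which library stood apart, and for Limd1, Lpp and Trip6 values without replicate 1 and without replicate 2 are given below. The 8 CD8 T cell markers summed to 9930 to 10400 CPM per library with IL-3 supernatant and 6740 to 6890 CPM with PBS supernatant, led by Gzmb at 8690 ± 226 CPM with IL-3 and 4520 ± 110 CPM with PBS supernatant (SD, n = 3 each). Gzmb and Cd247 were higher, 5 markers were lower, among them Cd8a at 377 ± 15.5 CPM with IL-3 and 850 ± 41.1 CPM with PBS supernatant, and Lck did not pass. The 3 CD4 T cell markers summed to 17.9 to 19.8 CPM with IL-3 supernatant and 6.44 to 9.29 CPM with PBS supernatant, mostly Zbtb7b, which was higher (edgeR adjusted p = 2.69e-06), while Cd4 itself stood at 0.301 ± 0.264 CPM with IL-3 and 0.692 ± 0.214 CPM with PBS supernatant. Of the other cell types' marker lists, the basophil and mast cell list summed to 2.81 to 3.55 CPM per library with IL-3 supernatant and 0.389 to 0.499 with PBS supernatant. Cyp11a1 made up most of it with IL-3 supernatant, at 2.76 ± 0.344 CPM (0.111 ± 0.0955 CPM with PBS supernatant), while 4 of the 9 markers, Mcpt8, Prss34, Fcer1a and Ms4a2, were at 0 in all 6 libraries. With IL-3 supernatant the B cell list summed to 110 to 132 CPM (mostly Ighm), the endothelial list to 4.63 to 5.82 CPM (mostly Pecam1), the epithelial list to 1.84 to 3.42 CPM (mostly Epcam) and the myeloid list to 1.58 to 2.71 CPM. With PBS supernatant these lists summed to 295 to 326 CPM (B cell), 24.6 to 28.0 CPM (endothelial), 5.90 to 6.27 CPM (epithelial) and 2.33 to 3.08 CPM (myeloid). Cdh5, Kdr, Tek, Emcn, Krt5, Krt8 and Krt19 were at 0 in all libraries. The stromal list reached 0.613 to 1.08 CPM with IL-3 supernatant and 0.111 to 0.443 with PBS supernatant, with Col3a1 at 0. The part of these shifts in the results below was not tested. In bulk RNA, fewer cells that express a gene and less of its RNA per cell cannot be told apart.

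Ajuba transcript was abundant in every library with IL-3 supernatant and scarce in every library with PBS supernatant. Ajuba (ENSMUSG00000022178, chr14:54567472-54577558, minus strand, GRCm38) had 1535, 1932 and 1586 expected counts with IL-3 supernatant, against 51, 44 and 37 with PBS supernatant. Scaled for library size these were 79.0, 87.0 and 81.0 CPM with IL-3 supernatant and 2.84, 2.44 and 2.11 CPM with PBS supernatant. The lowest IL-3 supernatant library lay far above the highest PBS supernatant library, and the libraries within each group lay close together. The means were 82.3 ± 4.15 CPM with IL-3 and 2.46 ± 0.365 CPM with PBS supernatant (SD, n = 3 each). The log2 fold change was 5.06 (SE 0.11), or 33.3-fold. Of the 12407 genes tested, 20 (0.161%) had a higher log2 fold change.

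Limd1 and Wtip, the nearest relatives of Ajuba, showed no difference of that size. Limd1 (ENSMUSG00000025239, chr9:123478706-123521552, plus strand), which encodes a scaffold that binds LATS, the prolyl hydroxylases of hypoxia-inducible factors and Argonaute proteins, stood at 103, 102 and 106 CPM with IL-3 supernatant and at 108, 125 and 118 CPM with PBS supernatant. The groups did not overlap, but the highest IL-3 supernatant value and the lowest PBS supernatant value were nearly equal. The means were 104 ± 2.18 CPM with IL-3 and 117 ± 8.48 CPM with PBS supernatant (SD, n = 3 each). The log2 fold change was -0.17 (SE 0.06), -0.22 without PBS supernatant replicate 1 and -0.11 without PBS supernatant replicate 2. Wtip (ENSMUSG00000036459, chr7:34109543-34133268, minus strand), named for its binding to the Wilms tumour protein, had 4, 4 and 5 counts with IL-3 supernatant and 2, 4 and 3 with PBS supernatant. The groups overlapped, close to the limit of detection in both. The ratio of summed counts, 13 with IL-3 supernatant against 9 with PBS supernatant and scaled for library size, was 1.26 (95% exact counting interval 0.50 to 3.35).

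In the zyxin family Zyx was near equal between the groups, Lpp overlapped between them with a higher mean with IL-3 supernatant, and Trip6, the rarest, was higher with IL-3 supernatant. Zyx (ENSMUSG00000029860, chr6:42349630-42360213, plus strand), which encodes zyxin, the Ena/VASP-binding protein of focal adhesions, stood at 121, 111 and 125 CPM with IL-3 supernatant and at 119, 117 and 118 CPM with PBS supernatant. The PBS supernatant values lay within the range of the others, and the log2 fold change was 0.01 (SE 0.06). Lpp (ENSMUSG00000033306, chr16:24393507-24992578, plus strand), which encodes the lipoma preferred partner, an alpha-actinin-binding relative of zyxin, stood at 34.2, 33.4 and 28.9 CPM with IL-3 supernatant and at 32.2, 21.1 and 24.9 CPM with PBS supernatant. The groups overlapped through PBS supernatant replicate 1. The log2 fold change of Lpp was 0.30 (SE 0.14), 0.49 without that library and 0.18 without PBS supernatant replicate 2.

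Trip6 (ENSMUSG00000023348, chr5:137309654-137314404, minus strand) encodes a thyroid receptor-interacting LIM protein that binds a lysophosphatidic acid receptor and LATS kinases. It had 54, 64 and 41 counts with IL-3 supernatant and 28, 16 and 19 with PBS supernatant, which came to 2.78, 2.88 and 2.09 CPM with IL-3 supernatant and to 1.56, 0.887 and 1.08 CPM with PBS supernatant. Every IL-3 supernatant library was above every PBS supernatant library. The means were 2.59 ± 0.429 CPM with IL-3 and 1.18 ± 0.345 CPM with PBS supernatant (SD, n = 3 each). The log2 fold change was 1.13 (SE 0.35), or 2.19-fold, 1.39 without PBS supernatant replicate 1 and 0.98 without PBS supernatant replicate 2. Of all genes tested, 4.22% had a higher log2 fold change.

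**Figure D1:**
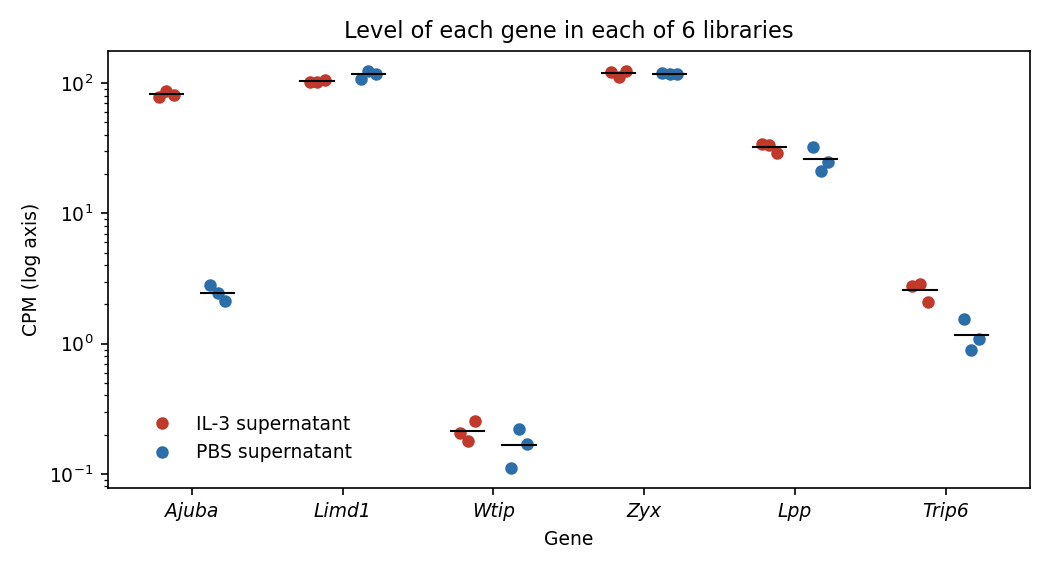
CPM on a log axis for each of the 6 genes, with IL-3 supernatant libraries in red left of PBS supernatant libraries in blue; each point is a library and each line the mean of 3. Ajuba sits between 79.0 and 87.0 CPM in the red libraries and between 2.11 and 2.84 CPM in the blue ones, while Limd1, Zyx and Lpp lie at similar heights in both.

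Of the 5 genes tested, 3 had an adjusted p below 0.05, Ajuba and Trip6 higher and Limd1 lower with IL-3 supernatant, where 30.9% of all genes tested did. Higher calls were 14.8% and lower calls 16.1% of all genes tested. The same 3 genes did not overlap between the groups in CPM, as was true of 43.6% of all genes tested. Since the genes were chosen with this comparison known, nothing is read from these counts. Ajuba stayed below the threshold in all 18 other settings tried, Trip6 in 11, Lpp in 2 (without PBS supernatant replicate 1 and with no filter), and Limd1 in 1 (without PBS supernatant replicate 1), while Zyx stayed above it. Trip6 lost the call without IL-3 supernatant replicate 1 or 2 and without PBS supernatant replicate 2 or 3. The call was also lost in every limma fit on TPM of 5 libraries (adjusted p = 0.102, 0.105 and 0.15).

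**Figure D2:**
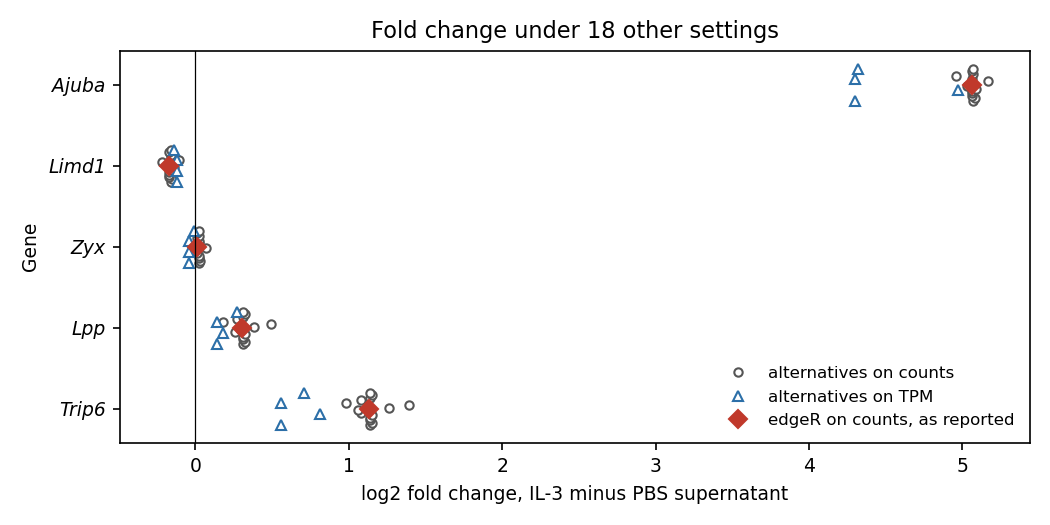
Log2 fold change (IL-3 minus PBS supernatant) of the 5 tested genes as reported (red diamonds), under alternatives on counts (circles) and under alternatives on TPM (triangles). Ajuba ranges from 4.30 to 5.17 and Trip6 from 0.56 to 1.39, the lower values being on TPM with a pseudocount, and Limd1, Zyx and Lpp stay within -0.22 to 0.49.

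The 250 bases upstream of the start that RefSeq gives are shown for Ajuba, the gene with the widest difference, and for Wtip, its closest relative by coding sequence, which was near the limit of detection in both groups. They are RefSeq sequences of GRCm38.p6, 5′ to 3′ on the strand of the gene, at chr14:54577662-54577911 (minus strand) for Ajuba and chr7:34133269-34133518 (minus strand) for Wtip. Capitals mark each match to GGAATG on either strand (CATTCC on the other), the core of the motif of TEAD factors, through which YAP acts on DNA.
Ajuba: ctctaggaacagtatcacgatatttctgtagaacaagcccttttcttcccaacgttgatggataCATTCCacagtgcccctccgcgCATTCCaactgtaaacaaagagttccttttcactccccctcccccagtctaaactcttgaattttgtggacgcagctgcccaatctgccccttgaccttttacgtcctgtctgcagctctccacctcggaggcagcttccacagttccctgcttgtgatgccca
Wtip: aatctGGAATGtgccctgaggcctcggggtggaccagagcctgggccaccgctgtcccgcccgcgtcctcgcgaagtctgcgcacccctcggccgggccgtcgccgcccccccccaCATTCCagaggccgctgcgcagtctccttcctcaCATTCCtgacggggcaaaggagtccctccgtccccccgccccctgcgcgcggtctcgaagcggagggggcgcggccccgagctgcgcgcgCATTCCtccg
The Ajuba window holds 2 matches, 186 and 164 bases before the start, and the Wtip window holds 4, at 245, 134, 100 and 10 bases. Of 32817 such windows, 12.6% hold at least 1 match and 1.02% at least 2. The motif was chosen after these sequences were seen. The GC content was 50.8% for Ajuba and 73.6% for Wtip.

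RefSeq windows matched 5 of the 6 genes (all but Limd1). Trip6 had 1 match to GGAATG, 32 bases before its start, the second of the windows of Lpp had 1, at 182 bases, and the first Lpp window and Zyx had 0. The STAT palindrome with the wider spacing, which STAT6 binds, occurred once in the Ajuba window, 227 bases before the start, and in 5.85% of all windows. The STAT palindrome with the narrower spacing occurred once in the second Lpp window and in 7.01% of all windows. The AP-1 core (TGANTCA) occurred once in the Zyx window and in 6.75% of all windows. A GATA motif (AGATAA) occurred in no window of these genes and in 9.99% of all windows. These matches are descriptions of letters and show no binding.

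Levels of different genes were compared in TPM, transcript abundances scaled for length. With IL-3 supernatant the order was Zyx at 91.3 ± 7.22, Ajuba at 46.0 ± 2.21, Limd1 at 41.9 ± 1.21, Lpp at 4.06 ± 0.347, Trip6 at 2.57 ± 0.499 and Wtip at 0.275 ± 0.0811 TPM (SD, n = 3). With PBS supernatant it was Zyx at 92.0 ± 3.03, Limd1 at 46.3 ± 2.02, Lpp at 3.23 ± 0.801, Ajuba at 1.35 ± 0.222, Trip6 at 1.19 ± 0.392 and Wtip at 0.206 ± 0.0350 TPM. Ajuba was thus the second most abundant of the 6 transcripts with IL-3 supernatant and, with PBS supernatant, one of the 3 scarcest. Ajuba exceeded Limd1 by 2.50, 7.42 and 2.40 TPM in the IL-3 supernatant libraries, a narrow lead in each. The difference, Ajuba minus Limd1, was -42.3, -46.2 and -46.2 TPM in the PBS supernatant libraries. Ajuba and Trip6 overlapped with PBS supernatant, at 1.60, 1.29 and 1.17 TPM for Ajuba and 1.52, 0.756 and 1.29 TPM for Trip6.

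The summed level of the 6 genes was 184, 181 and 193 TPM with IL-3 supernatant, against 145, 141 and 147 TPM with PBS supernatant. The Ajuba family made up that difference: Ajuba, Limd1 and Wtip together came to 85.7, 89.7 and 89.2 TPM with IL-3 supernatant and to 45.8, 49.0 and 48.7 TPM with PBS supernatant. The zyxin family summed to 98.8, 91.0 and 104 TPM with IL-3 supernatant and to 99.7, 91.8 and 97.9 TPM with PBS supernatant, and these overlapped. Ajuba held 24.8 ± 1.76% of the summed level with IL-3 supernatant and 0.938 ± 0.151% with PBS supernatant (SD, n = 3 each). The share of Zyx was 49.0 ± 2.33% with IL-3 supernatant and 63.8 ± 0.90% with PBS supernatant, although its own level was near equal. The value of PBS supernatant replicate 2 is the sum over isoforms, since that library was deposited with TPM per isoform.

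**Figure D3:**
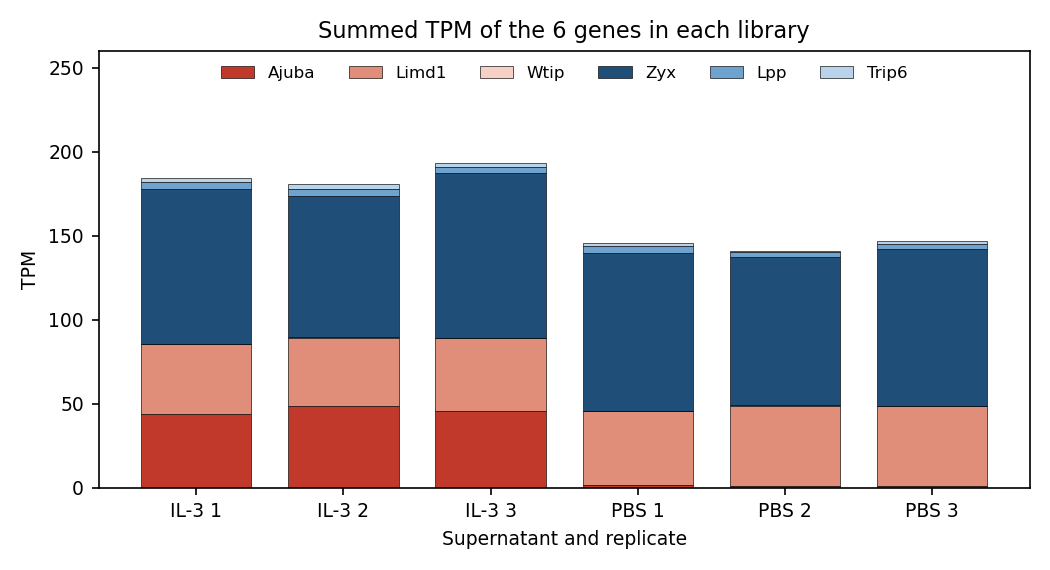
Stacked bars of the TPM of the 6 genes in each library, IL-3 supernatant libraries left of PBS supernatant libraries, with the Ajuba family in reds and the zyxin family in blues. The bars reach 181 to 193 TPM with IL-3 supernatant and 141 to 147 TPM with PBS supernatant, and the Ajuba segment, 44.0 to 48.4 TPM with IL-3 supernatant, is barely visible with PBS supernatant.

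Counts of related genes can be divided wrongly where their transcripts share sequence, and this was examined in the GENCODE transcripts of GRCm38. Identity was the share of matching bases among those aligned to each other in a global alignment. Bases set against a gap were left out, so a difference in length does not lower it. The coding sequences of Ajuba (1641 bases) and Limd1 (2004 bases) were 64.4% identical, those of Ajuba and Wtip (1194 bases) 72.0%, and those of Limd1 and Wtip 71.8%. In the zyxin family Zyx and Lpp were 60.8%, Zyx and Trip6 64.6% and Lpp and Trip6 66.8% identical. Between families the Ajuba sequence was 57.9% to 59.3% identical to those of Zyx, Lpp and Trip6. Over all pairs between families identity ran from 57.1% (Limd1 and Lpp) to 66.4% (Wtip and Lpp). That range overlaps the one within families, so identity did not separate the families. Over the last 600 coding bases, the end that encodes the LIM domains, Ajuba was 68.7% identical to Limd1 and 70.4% to Wtip. The longest run of bases shared by any pair of the 6 genes was 24, taken over a full transcript of each, untranslated ends included. All expected counts of the 6 genes were whole numbers (within 1e-06), whereas RSEM gives fractions where it divides reads between genes.

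Of the windows of 50 bases along the Ajuba transcript, 65 of 3348 (1.94%) occur in transcripts of other genes, 153 in all. The figure was 1.06% for Zyx, all shared with Epha1, 0.266% for Lpp and 0 for Limd1, Wtip and Trip6. Zyx overlaps Epha1 on the opposite strand over 1727 bases of the genome, and Lpp overlaps the noncoding gene Lppos. Whether the counting used strand is not given in the sources used here, so reads of such pairs may be mixed. Epha1 had 23 counts with IL-3 supernatant and 9 with PBS supernatant over 3 libraries each, and Lppos 25 with IL-3 supernatant and 32 with PBS supernatant, which is little beside the counts of Zyx and Lpp. No annotated gene overlaps Ajuba, Limd1, Wtip or Trip6.

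Isoform values came from 1 library, PBS supernatant replicate 2, and allow no comparison between the groups. All of the Ajuba TPM there, 1.29, was assigned to Ajuba-201, the protein-coding transcript of 8 exons and 3397 bases and the one Ajuba transcript listed. Limd1, Trip6 and Wtip were likewise assigned to a single protein-coding transcript each. Lpp-201 held 83.3% and Lpp-202 16.3% of the Lpp TPM. Zyx was the most divided, with 64.7% in Zyx-207, 17.6% in Zyx-201, 7.74% in the retained-intron transcript Zyx-203 and 6.91% in Zyx-209.

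No tested neighbour of Ajuba on chromosome 14 had a difference of its size. Of the 5 nearest genes with a count on each side, 8 were tested, of which 1 was higher, 3 were lower and 4 did not pass. Haus4, a subunit of the augmin complex of the mitotic spindle and the nearest tested gene at lower coordinates, was at 37.9 ± 1.04 CPM with IL-3 supernatant and 46.7 ± 3.56 CPM with PBS supernatant (SD, n = 3 each; log2 fold change -0.30, SE 0.08, edgeR adjusted p = 0.00833). Prmt5, an arginine methyltransferase that Ajuba recruits with Snail factors, had a log2 fold change of -0.18 (adjusted p = 0.0311) and the receptor gene Lrp10 -0.15 (adjusted p = 0.0460). Mmp14, which encodes a membrane-bound metalloproteinase and starts at -136 kb, was low in both groups, at 0.683 ± 0.0773 CPM with IL-3 and 0.131 ± 0.118 CPM with PBS supernatant (log2 fold change 2.33, SE 0.69, edgeR adjusted p = 0.0165). At higher coordinates 4931414P19Rik (-0.50), Psmb5 (0.08), Cdh24 (-0.31) and Acin1 (-0.11) did not pass. Rem2 and Psmb11 were below the filter.

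**Figure D4:**
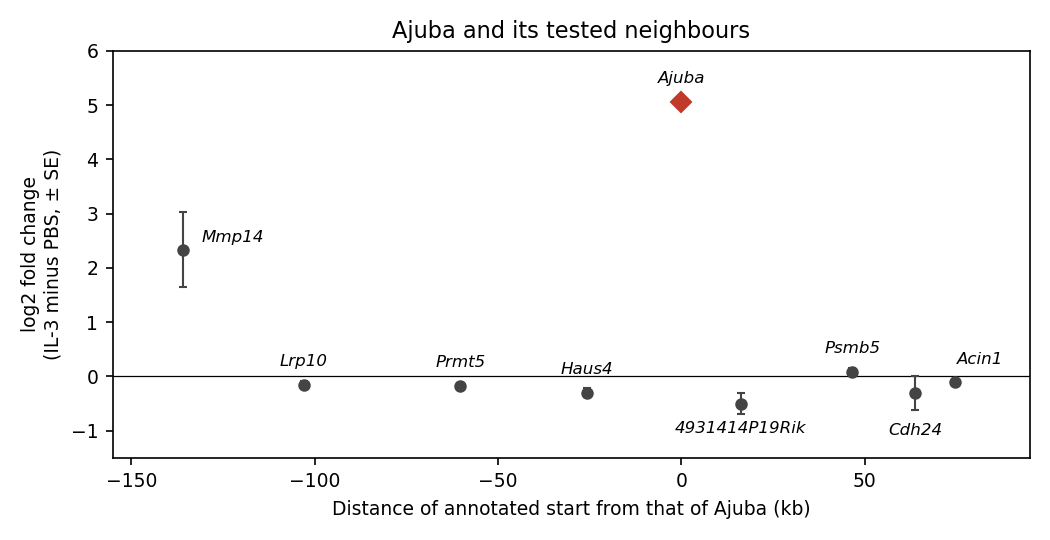
Log2 fold change (IL-3 minus PBS supernatant, bars ± SE) of Ajuba (red diamond) and its 8 tested neighbours against the distance of their annotated starts from that of Ajuba in kb. Ajuba stands at 5.06, Mmp14 at 2.33 with a wide bar, and the other 7 between -0.50 and 0.08.

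Related genes were described in 8 lists, which hold 201 genes without the 6 above. With IL-3 supernatant, 34 of the 150 tested were higher and 47 lower, or 54.0% called, beside 30.9% of all genes. Some lists share genes (Lasp1, Vcl, Flna, Fhl2, Fhl3, Lims1 and Lats2 among them), so their counts are not independent, and the shares are given with no test of the lists.

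Among the other genes with LIM domains, 6 of 26 tested were higher and 11 lower (65.4% called), with a median log2 fold change of -0.04, beside -0.005 over all genes tested. Lasp1, an actin-binding LIM and SH3 protein, fell, at 95.4 ± 0.922 CPM with IL-3 supernatant and 167 ± 6.49 CPM with PBS supernatant (SD, n = 3 each; log2 fold change -0.81, SE 0.06, edgeR adjusted p = 6.86e-09). Pdlim5, a PDZ and LIM scaffold, fell as well, at 18.7 ± 1.64 CPM with IL-3 and 35.9 ± 4.21 CPM with PBS supernatant (-0.94, SE 0.10), and so did Mical1, an enzyme that oxidises actin filaments, at 70.6 ± 5.04 CPM with IL-3 and 109 ± 8.86 CPM with PBS supernatant (-0.63, SE 0.07). Lpxn, which encodes leupaxin, the paxillin relative of leukocytes, rose, at 78.7 ± 2.02 CPM with IL-3 and 52.0 ± 3.63 CPM with PBS supernatant (0.60, SE 0.07). Fblim1, which encodes migfilin, a further relative of zyxin, had 0 counts in all 6 libraries. Of the 49 genes listed, 23 were below the filter.

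In the Hippo pathway, which Ajuba-family proteins restrain at the LATS kinases, 5 of 25 tested genes were higher and 7 lower (48.0% called, median log2 fold change -0.07). Yap1, the coactivator that the pathway inhibits, rose, at 5.00, 4.55 and 4.14 CPM with IL-3 supernatant and 1.34, 1.27 and 1.25 CPM with PBS supernatant (log2 fold change 1.82, SE 0.27, edgeR adjusted p = 5.26e-05). Tead1, a DNA-binding partner of YAP, fell, at 2.73, 2.16 and 1.89 CPM with IL-3 supernatant and 14.2, 10.8 and 14.1 CPM with PBS supernatant (-2.53, SE 0.19, edgeR adjusted p = 1.87e-08). Neither gene overlapped between the groups, and the partners YAP and TEAD1 thus had transcripts that moved in opposite directions. The kinase gene Lats2 fell, at 7.26 ± 0.896 CPM with IL-3 and 14.3 ± 2.03 CPM with PBS supernatant (-0.98, SE 0.15), and Stk4, the upstream kinase MST1, fell by less, at 270 ± 7.91 CPM with IL-3 and 334 ± 7.69 CPM with PBS supernatant (-0.30, SE 0.05). Lats1 did not pass. The YAP paralogue Wwtr1 had 1 count with IL-3 supernatant and 0 with PBS supernatant, summed over 3 libraries each. Tead3 had 33 counts with IL-3 and 11 with PBS supernatant, Tead2 5 with IL-3 and 11 with PBS supernatant, and Tead4 4 with IL-3 and 0 with PBS supernatant, and these were not tested.

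Of 13 tested genes known as targets of YAP and TEAD, 4 were higher and 2 lower (46.2% called, median log2 fold change 0.19). Nt5e, which encodes the ectonucleotidase CD73, fell, at 4.09 ± 0.840 CPM with IL-3 supernatant and 30.9 ± 2.60 CPM with PBS supernatant (log2 fold change -2.91, SE 0.14, edgeR adjusted p = 7.55e-11). Axl, a receptor tyrosine kinase, rose, at 70.2 ± 9.73 CPM with IL-3 and 25.3 ± 2.42 CPM with PBS supernatant (1.47, SE 0.10), and Crim1 rose by less, at 114 ± 0.589 CPM with IL-3 and 86.7 ± 3.36 CPM with PBS supernatant (0.39, SE 0.06). The classical targets Ccn2 and Ankrd1 had 0 counts in all 6 libraries, and Ccn1 stood at 6.24 ± 2.26 CPM with IL-3 and 5.54 ± 0.965 CPM with PBS supernatant and did not pass.

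Of the 25 tested adhesion and actin partners of the zyxin and Ajuba proteins, 8 were higher and 12 lower (80.0% called, median log2 fold change -0.05). Evl, the Ena/VASP protein that is prominent in lymphocytes and binds zyxin, fell, at 82.1 ± 2.75 CPM with IL-3 supernatant and 117 ± 2.10 CPM with PBS supernatant (log2 fold change -0.51, SE 0.06, edgeR adjusted p = 2.66e-06). Vcl, which encodes vinculin, rose, at 24.8 ± 1.84 CPM with IL-3 and 14.3 ± 0.677 CPM with PBS supernatant (0.79, SE 0.10), and so did Nedd9, a docking protein of integrin signalling, at 90.7 ± 5.22 CPM with IL-3 and 66.8 ± 1.78 CPM with PBS supernatant (0.44, SE 0.06). Chosen after their values were seen, the docking protein gene Bcar1 (2.12 ± 0.552 CPM with IL-3 and 0.373 ± 0.0610 CPM with PBS supernatant, log2 fold change 2.48) and the p120 catenin gene Ctnnd1 (3.76 ± 0.371 CPM with IL-3 and 0.915 ± 0.0739 CPM with PBS supernatant, 2.03) rose, both at low levels. The changes of the abundant genes Vasp (-0.17), Actn4 (-0.14), Tln1 (-0.26) and Flna (-0.15) were small, each lower with IL-3 supernatant.

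A further list held Srf, the genes of its MRTF coactivators and their targets, which follow the state of actin and include many cytoskeletal genes. Of its 21 tested genes, 6 were higher and 10 lower (76.2% called, median log2 fold change -0.15). Myh9, the heavy chain of non-muscle myosin, fell, at 832 ± 19.9 CPM with IL-3 supernatant and 1250 ± 85.8 CPM with PBS supernatant (log2 fold change -0.59, SE 0.05, edgeR adjusted p = 3.37e-07). Filip1l (-1.10, SE 0.10), the calponin gene Cnn2 (-0.60, SE 0.06) and Coro1a, the coronin of leukocytes (-0.56, SE 0.07), fell too. The coactivator genes Mrtfa (-0.38, edgeR adjusted p = 0.00101) and Mrtfb (-0.47, edgeR adjusted p = 0.00441) were among the lower genes. Srf itself did not pass.

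In the oxygen-sensing machinery, where Limd1, Ajuba and Wtip proteins bridge prolyl hydroxylases and VHL, 4 of 12 tested genes were higher and 1 lower (41.7% called, median log2 fold change 0.10). Epas1, which encodes HIF-2 alpha, stood at 14.5, 14.0 and 14.3 CPM with IL-3 supernatant and 0.723, 0.665 and 0.456 CPM with PBS supernatant. The groups were far apart (log2 fold change 4.52, SE 0.20, edgeR adjusted p = 3.57e-11). Egln3, the prolyl hydroxylase PHD3, rose, at 159 ± 13.2 CPM with IL-3 and 44.8 ± 4.83 CPM with PBS supernatant (1.83, SE 0.08), Arnt by 0.20 (adjusted p = 0.0222), and Egln1, the prolyl hydroxylase PHD2, fell by 0.19 (adjusted p = 0.0266). Vhl and Hif1a did not pass. The count of called genes was 3 without IL-3 supernatant replicate 2, PBS supernatant replicate 2 or PBS supernatant replicate 3, and 2 without IL-3 supernatant replicate 3.

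Of the 16 tested genes of microRNA processing and silencing, 3 were lower and 13 did not pass edgeR's quasi-likelihood test (18.8% called, median log2 fold change -0.01). The GW182 genes Tnrc6c (44.1 ± 0.991 CPM with IL-3 supernatant and 63.7 ± 4.77 CPM with PBS supernatant, log2 fold change -0.53, adjusted p = 3.12e-05) and Tnrc6b (-0.33, adjusted p = 0.00439) fell, as did Dgcr8, a cofactor of Drosha (-0.18, adjusted p = 0.0265). Ago1, Ago2 and Ago3 did not pass. Without PBS supernatant replicate 1 the count of called genes was 6.

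Of 22 other partners of Ajuba that were tested, 4 were higher and 5 lower (40.9% called, median log2 fold change -0.03). Gfi1, a zinc finger repressor of the Snail/Gfi1 group, rose, at 93.7 ± 2.71 CPM with IL-3 supernatant and 43.9 ± 1.99 CPM with PBS supernatant (log2 fold change 1.09, SE 0.06, edgeR adjusted p = 1.1e-09). Snai3, a Snail family gene, fell, at 2.63 ± 0.451 CPM with IL-3 and 6.36 ± 1.43 CPM with PBS supernatant (-1.27, SE 0.23), as did the cytokine receptor kinase Jak1, at 250 ± 8.65 CPM with IL-3 and 340 ± 5.18 CPM with PBS supernatant (-0.45, SE 0.05), and the spindle checkpoint kinase Bub1b (-0.23, SE 0.05). Aurka, the mitotic kinase that Ajuba activates, did not pass.

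**Figure D5:**
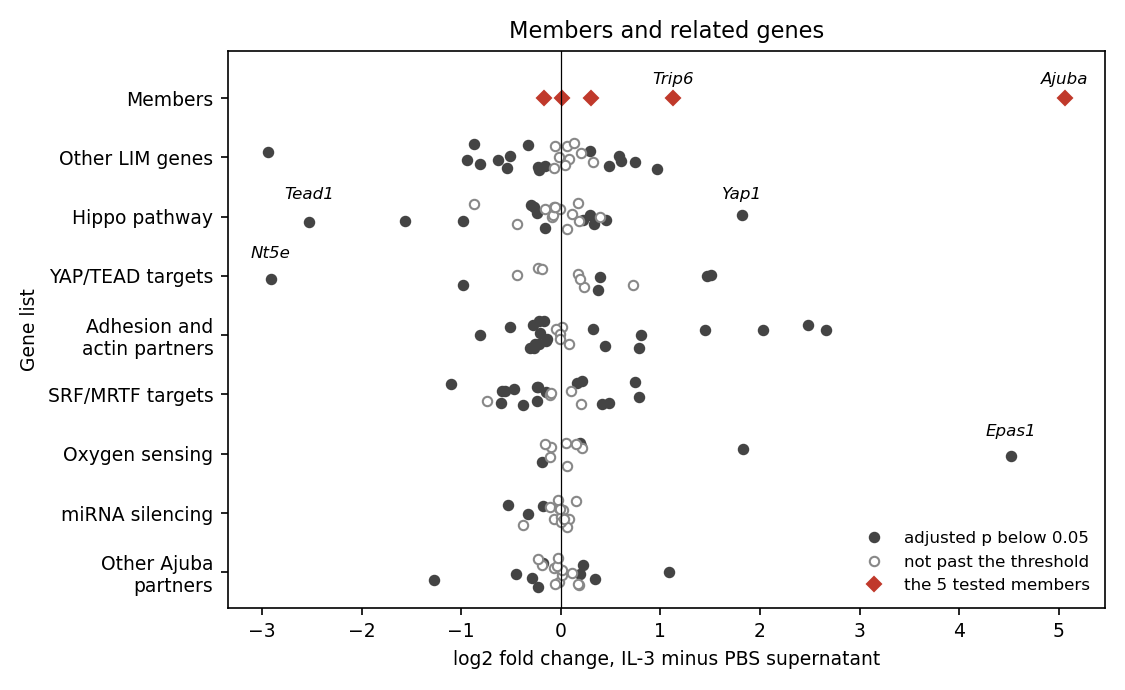
Log2 fold change (IL-3 minus PBS supernatant) of the 5 tested scaffold genes (red diamonds, top) and of the tested genes of 8 related lists, filled where the edgeR adjusted p was below 0.05 and open where it was not; genes in more than 1 list appear in each. Most points lie within 1 of 0, and Ajuba (5.06) and Epas1 (4.52) stand farthest to the right, Nt5e (-2.91) and Tead1 (-2.53) among the farthest to the left.

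Genes whose pattern was most like that of Ajuba were ranked by the Euclidean distance of log2 CPM (prior count 2), centred on each gene's mean over the 6 libraries. Tested genes with a model name (such as Gm or Rik names and bare identifiers) were left out of the ranking and of the counts within a distance. By it the nearest were Rnd3 (distance 0.422), Il3 (0.555), Pdpn (0.693), Stra6 (0.713) and Il4 (0.805), and 9 genes lay within a distance of 1. Il3 stood at 188 ± 17.8 CPM with IL-3 supernatant and 7.34 ± 0.165 CPM with PBS supernatant (SD, n = 3 each). The other 4 passed the filter only through the IL-3 supernatant libraries, so their distance depends on the prior count and gives no likeness in size of change. Rnd3 was at 3.40 ± 0.582 CPM and Pdpn at 2.43 ± 0.350 CPM with IL-3 supernatant, with 0 counts of either in the PBS supernatant libraries. Stra6 was at 4.20 ± 1.05 CPM with IL-3 and 0.0185 ± 0.0321 CPM with PBS supernatant, and Il4 at 3.92 ± 0.622 CPM with IL-3 and 0.0190 ± 0.0329 CPM with PBS supernatant. For Trip6 the nearest were H2-Q10 (0.211), Mob3b (0.295), Erfe (0.302), C9orf72 (0.330) and Tmem17 (0.375), with 743 genes within a distance of 1, so that its pattern was a common one.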

How the data were processed

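Per the submitters' processing notes, RSEM 1.2.12, Bowtie2 2.2.0, edgeR 3.20.9 and GRCm38 were used, but the order of the tools, annotation and strand setting were not given in the sources used here. Libraries were made from poly(A) RNA with a TruSeq kit, per the labels. The authors deposited expected counts per gene for 6 libraries, and TPM per gene for 5 libraries and per isoform for PBS supernatant replicate 2, of whose TPM 99.7% matched a gene. Symbols matched 46005 of 46517 identifiers.

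Expected counts were rounded and tested with edgeR 4.0.16 in R 4.3.3 (filterByExpr, TMM scaling, robust quasi-likelihood fit, no replicate block). Benjamini-Hochberg adjustment ran over all 12407 genes tested, which held at least 99.9% of each library's counts, with a threshold of 0.05. A positive log2 fold change means higher with IL-3 supernatant. SE values were computed from the F statistics. CPM use TMM-scaled library sizes. The fit was tested on simulated data. No pair of replicates agreed within sampling noise by the chi-square over all genes, and all 6 libraries were used. A few abundant genes can set that value, so it does not show whether the replicates were independent. Alternatives used DESeq2 1.42.0, limma 3.58.1 (voom, and log2 of TPM with a pseudocount of 1 or 0.1), other scalings and filters, a threshold of 0.01 and each library left out. Chosen after seeing the data were a fit without CT010467.1, the gene with the most counts in PBS supernatant replicate 2, and one on TPM of 6 libraries. Coordinates, overlaps and isoform structures are from GENCODE for GRCm38, and upstream windows from RefSeq for GRCm38.p6. Summaries and plots used pandas 2.3.3 and matplotlib 3.10.9 in Python 3.11.15.

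The 6 genes and all lists were chosen with earlier results of these data known. Named are the 6 genes, up to 4 called genes of smallest p per list, the 5 genes most alike in pattern to each scaffold gene with an absolute log2 fold change of at least 1, the 5 nearest genes with a count on each side of Ajuba, and markers. Other genes named, such as those that did not pass or had few counts, were chosen after their values were seen.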

Additional observations from a re-analysis of the deposited data

How the results depend on the processing

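The log2 fold change of Ajuba ranged from 4.96 to 5.17 with a library left out and was 4.30 (5 libraries, filtered or not) or 4.32 (6 libraries) on log2(TPM + 1), where the pseudocount weighs on its low PBS supernatant level, against 4.97 on log2(TPM + 0.1). Trip6 gave 0.98 to 1.39 with a library left out, and 0.56, 0.81, 0.56 and 0.71 on TPM. Limd1 ranged from -0.22 to -0.11, Lpp from 0.14 to 0.49 and Zyx from -0.04 to 0.07 over the 18 settings. No direction of a called gene among these turned.

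Of all genes tested, 1834 were higher and 2001 lower. Higher genes numbered 1156 and 1158 on log2(TPM + 1) and log2(TPM + 0.1) of 5 libraries, and 1217 at an adjusted p below 0.01. On log2(TPM + 1) of 5 libraries with no filter, 669 were higher and 820 lower. With a library left out, 1456 to 1916 were higher and 1601 to 2102 lower. DESeq2 gave 1744 and 1821.

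Called genes of the lists also fell in number on TPM. On log2(TPM + 1) and on log2(TPM + 0.1) of 5 libraries, 7 Hippo genes, 8 adhesion partners, 2 oxygen-sensing and 1 microRNA silencing gene were called in each. With no filter the TPM counts were 5 other LIM genes, 3 Hippo genes, 5 adhesion partners, 7 genes of the SRF list, 2 oxygen-sensing genes, 1 microRNA silencing gene and 2 other Ajuba partners. On TPM of 6 libraries they were 11 other LIM genes, 7 Hippo genes, 10 adhesion partners and 3 oxygen-sensing genes. At an adjusted p below 0.01, 11 other LIM genes, 13 adhesion partners and 2 oxygen-sensing genes were called. With a library left out, 2 to 6 oxygen-sensing genes and 2 to 6 microRNA silencing genes were called. The causes were not tested.

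Deviations from the group means correlated at -0.15, 0.05 and 0.25 between same-numbered replicates of the 2 groups. Pairs of unlike number ranged from -0.28 to 0.26. So few libraries cannot decide whether same-numbered replicates were paired. With the replicate number as a block, 1634 genes were higher and 1776 lower, and Limd1 lost its call. Not every library correlated best with its own number.

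Depth limits Wtip (13 counts with IL-3 and 9 with PBS supernatant) and Trip6 (159 with IL-3 and 63 with PBS supernatant) most.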

Other observations

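Around the other scaffold genes, 2 tested neighbours of Lpp fell. St6gal1, which encodes a sialyltransferase and starts at -1170 kb from the start of Lpp, was at 1.78 ± 0.674 CPM with IL-3 supernatant and 38.3 ± 0.657 CPM with PBS supernatant (SD, n = 3 each; log2 fold change -4.44, SE 0.17, edgeR adjusted p = 2.19e-11). Rtp4, at -873 kb, was at 0.0685 ± 0.0787 CPM with IL-3 and 1.25 ± 0.272 CPM with PBS supernatant (-4.12, SE 0.69, edgeR adjusted p = 0.000207). Bcl6, a transcriptional repressor gene between these and Lpp, did not pass (-0.07, SE 0.46). Of 6 tested neighbours of Trip6, Zan (22.8 ± 3.88 CPM with IL-3 and 10.7 ± 1.21 CPM with PBS supernatant, log2 fold change 1.10) and the pseudogene Gm20768 (0.98) were higher and Srrt (-0.17) lower. The 3 tested neighbours of Limd1 did not pass, while 3 of 7 for Wtip and 1 of 2 for Zyx were lower. Of the 3 for Wtip, Gramd1a starts far off, at -2980 kb from the start of Wtip, and Gpi1 and Gm26762 at 91.8 and 115 kb. These genes were chosen after their values were seen.

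Mical2, a LIM gene of the same actin-oxidising family as Mical1 and also chosen after its values were seen, was at 0.463, 0.270 and 0.970 CPM with IL-3 supernatant and 4.34, 5.49 and 3.25 CPM with PBS supernatant. The groups did not overlap (log2 fold change -2.94, SE 0.41, edgeR adjusted p = 2.97e-05). Crip2 rose (0.97, SE 0.13) and Crip1 fell (-0.87, SE 0.10), although both encode small LIM proteins of one family.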
